A study of Mus musculus with 8 samples.

Results

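Th1-like effector CD4 T cells made up 246 of the 49060 barcodes that passed the filters (500 or more genes detected, and mitochondrial genes holding no more than 10% of the UMIs, the unique molecular identifiers that each count 1 captured RNA molecule) in 5 single-cell libraries of mouse deep cervical lymph node. The cells were selected on their raw UMIs. A barcode was taken where it held a UMI of the CD3 chains and of Cd4, no UMI of Cd8a, Cd8b1, Cd79a, Foxp3, Cxcr5 or Trdc, and UMIs of at least 2 of the 7 genes Cxcr3, Ccl5, Ifng, Tbx21, Nkg7, Gzmk and Cxcr6. The 7596 barcodes that passed every step but the last are called gated CD4 T cells here, and the 7350 of them with fewer than 2 of the 7 genes are called the other gated CD4 cells. The libraries held 31, 28, 54, 58 and 75 of these Th1-like cells, in the order used throughout: first saline, then isotype, then anti-CTLA-4, and last the pair of B cell-depleted libraries, isotype before anti-CTLA-4.

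All mice were C57BL/6, and nodes were taken on day 20. The saline library came from wild-type mice with an intracranial injection of control buffer (DPBS), and the other 4 came from mice with intracranial GL261, a mouse glioma line. The isotype and anti-CTLA-4 libraries came from wild-type glioma mice given isotype IgG or antibody against CTLA-4, an inhibitory receptor of T cells. The 2 depleted libraries came from glioma mice made B cell-deficient with anti-CD20 and then given isotype IgG or anti-CTLA-4. Sorted live immune cells entered droplet libraries read from the 5′ end of the RNA. How many mice entered each library, and whether the saline mice received an antibody, is not given in the sources used here. With 1 library per group, no difference between conditions has a replicate check, and the intervals below (95%) cover counting error only.

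Th1 cells are the CD4 T helper lineage set by the transcription factor T-bet (the product of Tbx21) under interleukin-12 and interferon signals. They secrete interferon gamma, which activates macrophages and raises antigen presentation, and they carry CXCR3, a chemokine receptor that directs T cells into inflamed tissue, including the brain. Deep cervical nodes receive lymph from the brain and its coverings, and T cells can be primed there against antigens of the central nervous system.

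The 250 bases before the transcription start of 3 of the 7 genes are shown because they hold a motif tied to the pathway, a T-box half-site (GGTGTGA or its reverse complement TCACACC) or a GAS-like motif (TTCNNNGAA, the general form bound by STAT factors, its own reverse complement), which are in capitals. Both strands were searched in the RefSeq promoters of build GRCm38.p6, where 6 of the 7 genes were matched. Ifng, the gene of interferon gamma, holds the GAS-like motif from 249 bases before its start (chr10:118440796-118441045, plus strand). Nkg7, which encodes a cytotoxic granule membrane protein, holds the GAS-like motif from 220 bases and the T-box half-site from 13 bases before its start (chr7:43436888-43437137, plus strand). Gzmk, the gene of granzyme K, holds the T-box half-site from 75 bases before its start (chr13:113180966-113181215, minus strand). The T-box letters occurred in 3.33% of the 32851 promoters of this length and the GAS-like letters in 7.02%. A match describes letters in the window and is no evidence of a bound site. The windows of Cxcr3, Tbx21 and Cxcr6 did not hold these letters.
Ifng promoter: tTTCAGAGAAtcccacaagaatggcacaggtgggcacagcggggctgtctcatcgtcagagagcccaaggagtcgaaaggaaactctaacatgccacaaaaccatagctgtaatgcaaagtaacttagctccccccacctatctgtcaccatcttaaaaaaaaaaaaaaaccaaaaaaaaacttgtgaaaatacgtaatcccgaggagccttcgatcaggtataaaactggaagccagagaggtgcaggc
Nkg7 promoter: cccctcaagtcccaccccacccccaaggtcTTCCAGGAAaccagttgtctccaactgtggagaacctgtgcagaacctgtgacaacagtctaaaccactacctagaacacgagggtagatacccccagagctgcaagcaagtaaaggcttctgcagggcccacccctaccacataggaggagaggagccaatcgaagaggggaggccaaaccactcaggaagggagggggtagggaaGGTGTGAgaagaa
Gzmk promoter: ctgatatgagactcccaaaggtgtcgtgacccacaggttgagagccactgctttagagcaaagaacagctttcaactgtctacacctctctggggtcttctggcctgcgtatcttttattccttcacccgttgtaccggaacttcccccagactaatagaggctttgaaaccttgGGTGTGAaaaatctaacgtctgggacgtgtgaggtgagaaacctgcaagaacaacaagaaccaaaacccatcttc

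The 7 genes chose these cells, so their levels are a description. Cxcr3 had a UMI in 17 of 31 saline, 19 of 28 isotype, 41 of 54 anti-CTLA-4, 42 of 58 depleted isotype and 46 of 75 cells of the depleted anti-CTLA-4 library. Nkg7 was seen in 56.1% of the 246 cells, Ifng in 50.4%, Tbx21 in 38.2% and Ccl5, which encodes a chemokine of effector T cells, in 28.5%. Cxcr6, the receptor for CXCL16, was seen in 19.9% and Gzmk in 7.32%. Among the other gated CD4 cells, which hold at most 1 of these genes, the shares ran from 0.0272% for Gzmk to 1.84% for Cxcr3. B cell barcodes held a Cxcr3 UMI in 0.625% and a Tbx21 UMI in 1.40%, the latter above the 0.340% of the other gated CD4 cells. These shares are not read as a background rate. Median depths were 3587 to 3961 UMIs in B cell barcodes of the 3 libraries with B cells, against 5900 to 7979 in the Th1-like cells.

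Summed over the Th1-like cells of a library and scaled to 1000000 of their UMIs (CPM), Ifng stood at 191, 171, 241, 148 and 161, and Cxcr3 at 169, 161, 217, 148 and 165. Both levels were highest in the anti-CTLA-4 library and lowest in the depleted isotype library. The share of cells with an Ifng UMI was 64.5%, 60.7%, 42.6%, 43.1% and 52.0%, and so lowest in anti-CTLA-4. Without the cycling cells described below, the levels of Ifng, Nkg7 and Ccl5 were past 1.5-fold lower in anti-CTLA-4 than in isotype. Tbx21 stood at 60.1, 46.8, 64.1, 48.2 and 93.0 CPM, Nkg7 at 173, 340, 377, 289 and 300, and Cxcr6 at 56.3, 59.7, 101, 41.5 and 34.5. Ccl5 ran from 205 CPM in the isotype library to 848 in the depleted isotype library, and 1 cell held 81.0% of the isotype UMIs. Gzmk stood at 30.0, 26.0, 7.39, 51.5 and 49.5 CPM in 2, 1, 2, 3 and 10 cells. The plot of the 7 genes shows the cells and the summed levels side by side.

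**Figure D1:**
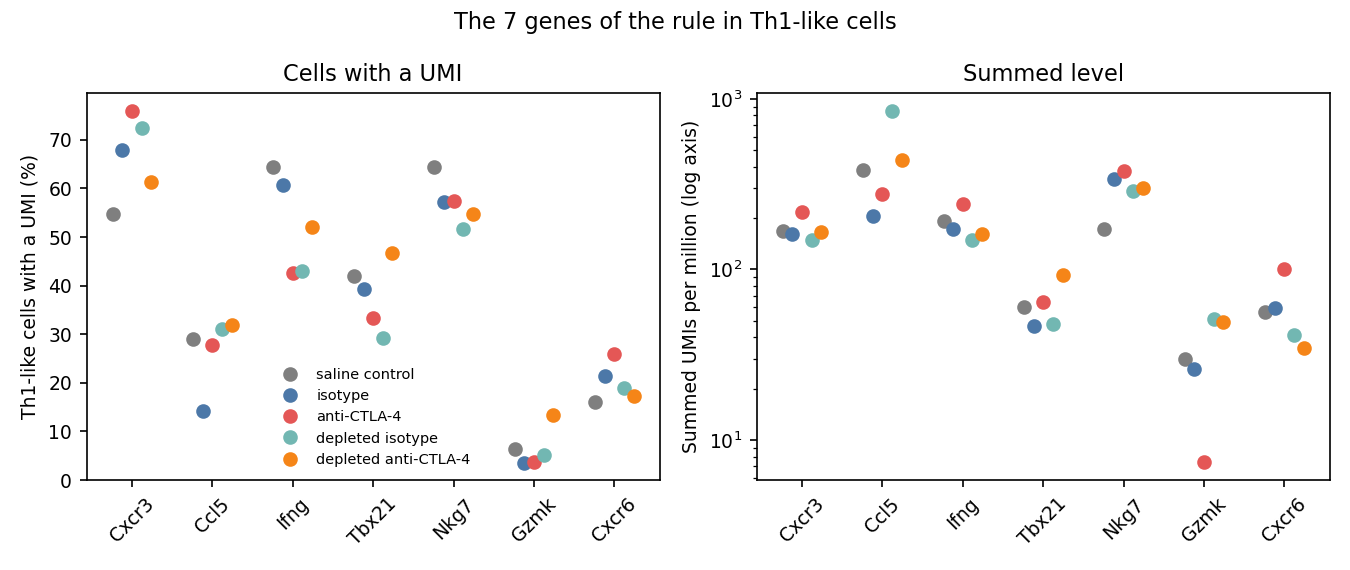
Left, percent of Th1-like cells with a UMI of each of the 7 selecting genes; right, summed level in CPM on a log axis; 1 point per library. Over the 246 cells Cxcr3 was seen in 67.1% and Gzmk in 7.32%, and Ccl5 spans 205 to 848 CPM.

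The pairs behind the selection were mixed. The most frequent exact combination was Cxcr3 with Ifng, in 32 cells, then Cxcr3 with Nkg7 and Cxcr3 with Tbx21 in 18 cells each, Ccl5 with Nkg7 in 16, and Cxcr3, Ifng and Nkg7 together in 15. Just inside the threshold, 140 cells held exactly 2 of the 7 genes, and 66, 25, 10 and 5 cells held 3, 4, 5 and 6 or 7. Just outside it, 487 gated CD4 cells held exactly 1, of which 135 had Cxcr3, 109 Nkg7, 104 Ccl5 and 37 Ifng.

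Under the same count of 2 of 7 genes, other T cells passed with different genes. Among 4685 CD8 cells that passed, 99.4% held Nkg7, 53.1% Cxcr6, 35.5% Cxcr3 and 5.42% Ifng. Among 74 Foxp3-positive CD4 cells that passed, 64.9% held Nkg7, 60.8% Cxcr3 and 21.6% Ifng, the last below the 50.4% of the Th1-like cells. Since the rule counts these genes, the differences carry no test.

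The 5 Th1 markers are all selecting genes, so their difference from the other gated CD4 cells is fixed by the rule. Their summed level was 925 to 1481 CPM in the Th1-like cells of the 5 libraries against 20.7 to 182 in the other gated CD4 cells. All 9 T cell markers were present in every library (4743 to 5964 CPM). Zbtb16, the defining factor of innate-like T cells, was seen in 1 cell and the invariant segment Trav11 in none, although the 6 innate-like markers, which include the selecting gene Cxcr6, summed to 46.5 to 126 CPM against 1.65 to 9.80. Natural killer markers summed to 20.8 to 78.9 CPM against 1.89 to 6.05. The B cell gene Pax5, the plasmacytoid gene Siglech, the macrophage gene Lyz2 and the 4 globin genes were at 0 in the Th1-like cells of all 5 libraries. The lists they belong to were not at 0. The 8 B cell genes summed to 143 to 236 CPM against 172 to 231 in the other gated CD4 cells, with 3 to 5 genes present, and the 6 plasmacytoid genes to 101 to 188 CPM against 98.1 to 138, with 3 present. The 10 myeloid genes summed to 110 to 165 CPM with 4 or 5 present in 4 libraries, and to 2188 CPM with 8 present in the anti-CTLA-4 library, against 160 to 394 in the other gated CD4 cells. No heavy chain receptor contig was found in 31, 28 and 54 cells of the 3 libraries with a receptor library, which by a floor of 3 cells allows shares of up to 9.68%, 10.7% and 5.56% (exact binomial upper limits 11.2%, 12.3% and 6.60%), while 86.1% to 89.3% of B cell barcodes held one. A receptor contig of another chain was found in 1 of the 54 anti-CTLA-4 cells and in none of the saline or isotype cells.

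Regulatory T cell markers were higher than in the other gated CD4 cells although Foxp3 was at 0 by rule. The 6 markers summed to 449 to 806 CPM against 168 to 250, and Ikzf2, which encodes Helios, had a UMI in 15 of 31, 14 of 28, 26 of 54, 25 of 58 and 26 of 75 cells. Th2 markers summed to 93.9 to 165 CPM against 46.3 to 108, with Gata3 seen in 34.5% to 60.7% of cells. The type 17 list reached 205 CPM in the isotype library, where 1 cell held 50 Il17a UMIs, and 7.51 to 38.2 in the other 4. In the anti-CTLA-4 library 1 cell held 529 of the 551 MHC class II UMIs of the 246 cells. Without that cell 1404 genes differed between anti-CTLA-4 and isotype by the fold rule given below, against 1365 with it. The part of cells with a missed Foxp3 or Cxcr5 UMI was not tested.

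High doublet scores were uneven. They marked 10 of 31 Th1-like cells in the saline library, 1 of 28 in isotype, 8 of 54 in anti-CTLA-4, 6 of 58 in depleted isotype and 13 of 75 in depleted anti-CTLA-4, against 0.746% to 3.36% of the other gated CD4 cells. Libraries shared 109 to 164 barcodes (1.21% to 1.70% of the smaller library) and no Th1-like barcode. The whole libraries held 54715065 to 63497466 UMIs.

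The first question was whether glioma, CTLA-4 blockade or B cell loss changed how many CD4 T cells were Th1-like. As a share of gated CD4 T cells, Th1-like cells were 2.84% in saline (interval 1.94% to 4.01%, exact binomial), 2.90% in isotype (1.93% to 4.16%), 4.52% in anti-CTLA-4 (3.41% to 5.85%), 2.65% in depleted isotype (2.02% to 3.42%) and 3.48% in depleted anti-CTLA-4 (2.75% to 4.34%). The anti-CTLA-4 library was highest and the depleted isotype library lowest, and all 5 intervals overlapped. Neighbours in that order did not differ beyond their counting error.

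The ratio of shares was 1.02 for glioma over saline (0.616 to 1.69), 1.56 for anti-CTLA-4 over isotype in nodes with B cells (0.995 to 2.44) and 1.31 after depletion (0.936 to 1.84). It was 0.915 for depleted over intact under isotype (0.587 to 1.43) and 0.770 under anti-CTLA-4 (0.547 to 1.09). Every interval held 1, so at each cell's own depth no change of share was detectable at this number of cells. With every barcode thinned to 3000 UMIs the shares were 2.23%, 2.26%, 3.79%, 2.12% and 2.26%, and the last ratio became 0.598 (0.377 to 0.949). Without high doublet scores they were 1.97%, 2.82%, 3.92%, 2.44% and 2.99%.

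Taken over all barcodes, Th1-like cells were 0.316%, 0.292%, 0.461%, 0.648% and 0.832% of the 5 libraries. That share was 1.58 times higher in anti-CTLA-4 than in isotype nodes (1.002 to 2.49). It was 2.22 times higher in depleted isotype than in isotype nodes (1.41 to 3.48) and 1.80 times higher in depleted anti-CTLA-4 than in anti-CTLA-4 nodes (1.27 to 2.55). The depleted libraries held 58 and 87 B cell barcodes against 4502 to 5196 in the other 3, so the depletion ratios of this share move with the missing B cells.

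**Figure D2:**
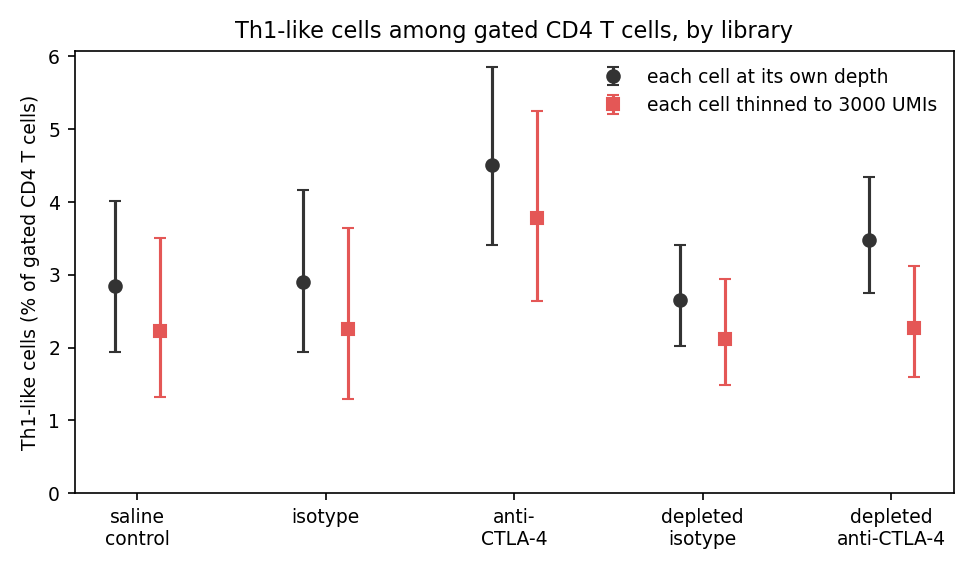
Th1-like cells as percent of gated CD4 T cells in each library, at each cell's own depth (circles) and with each cell thinned to 3000 UMIs (squares); bars are exact binomial 95% intervals. Circles run from 2.65% to 4.52% and squares from 2.12% to 3.79%, with anti-CTLA-4 highest in both.

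Th1-like cells held genes of division more often than the other gated CD4 cells, given as a description since the rule cut on this contrast. A UMI of Mki67 or Top2a, genes of dividing cells, was present in 7 of 31 saline, 9 of 28 isotype, 18 of 54 anti-CTLA-4, 15 of 58 depleted isotype and 24 of 75 cells of the depleted anti-CTLA-4 library. The share over all 246 was 29.7% (24.0% to 35.8%) against 5.18% of the other gated CD4 cells (4.69% to 5.72%). Thinned to 3000 UMIs it was 19.1% against 3.10%. Within each library the Th1-like share was the higher, and between libraries (22.6% to 33.3%) all intervals overlapped.

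Cycling cells were deep, and they held 41.6% of the Th1-like UMIs in saline, 63.7% in isotype, 44.6% in anti-CTLA-4, 47.3% in depleted isotype and 46.4% in depleted anti-CTLA-4, and 1 isotype cell held 83955 UMIs. Their median depth was 10510, 18662, 8744.5, 15558 and 8497.5 UMIs, against 4801 to 6402 in the cells without either gene. Each comparison of conditions below is therefore also given without the cells that held a Mki67 or Top2a UMI, called non-cycling cells here.

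**Figure D3:**
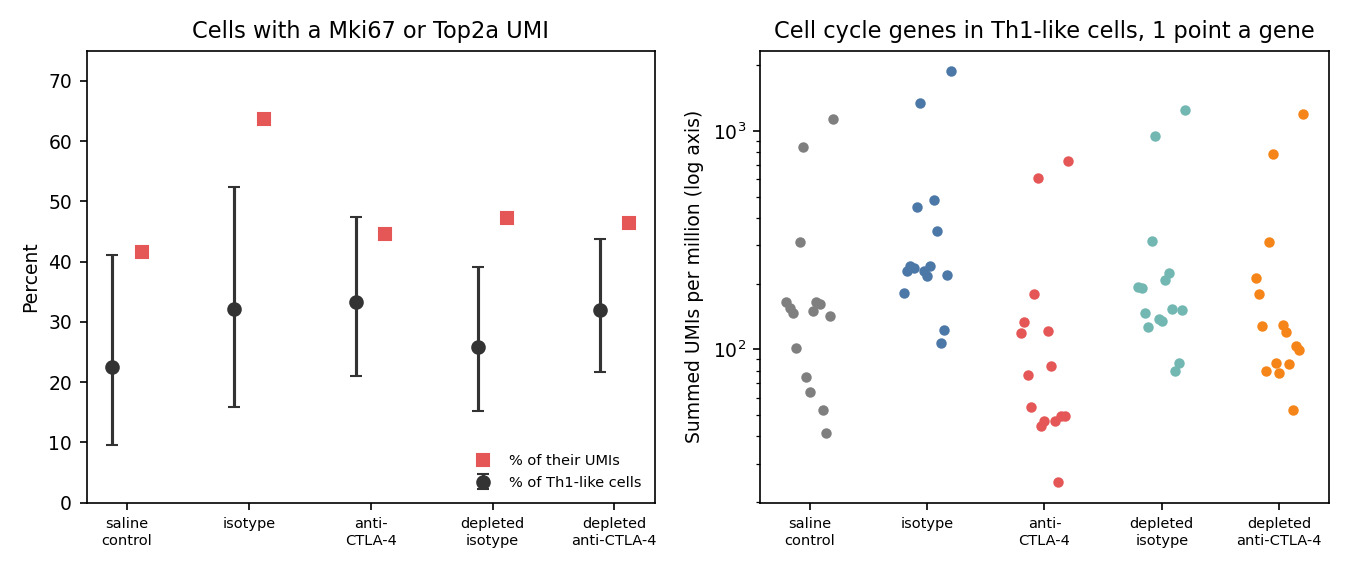
Left, percent of Th1-like cells with a Mki67 or Top2a UMI (circles, exact binomial 95% intervals) and the percent of Th1-like UMIs those cells held (squares); right, summed level of each cell cycle gene in CPM on a log axis, 1 point per gene. Circles lie between 22.6% and 33.3%, and the isotype square stands highest at 63.7%.

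Beyond the selecting genes, the Th1-like cells had an activated effector profile that included genes of T follicular helper (Tfh) cells. The contrast was with the other gated CD4 cells of the same nodes. The rule cut on this contrast, so values are descriptive: of 11537 genes with enough UMIs, 13.2% were past 1.5-fold higher in all 5 libraries and 8.11% lower. S100a4, a calcium-binding protein of effector T cells, stood at 169, 616, 463, 138 and 276 CPM against 9.93 to 29.4. Bhlhe40, a factor needed for cytokine output of Th1 cells, stood at 345, 478, 660, 321 and 458 against 32.4 to 63.1. Every library had the Th1-like level above the highest level of the other gated CD4 cells.

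Penk, which encodes the opioid peptide precursor proenkephalin, had the highest ratio, with 578, 1109, 781, 189 and 236 CPM against 3.09 to 12.1. It was carried by 36 cells, and 1 cell held 87.0% of the saline UMIs. The integrin chain Itgb1 (CD29) stood at 544, 509, 574, 485 and 815 CPM against 52.8 to 75.4, and the interleukin-2 and interleukin-15 receptor chain Il2rb at 255, 319, 411, 281 and 357 against 45.6 to 71.3. Both were seen in most Th1-like cells of each library: Il2rb in 22, 26, 42, 43 and 58 cells and Itgb1 in 23, 25, 39, 44 and 62.

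By list, 16 of 17 effector cytoskeletal and S100 genes were past 1.5-fold higher in all 5 libraries, as were 17 of 20 checkpoint and costimulation genes, 12 of 21 cytokines and ligands, 11 of 19 antigen receptor response genes, 11 of 15 Tfh genes and 15 of 15 cell cycle genes. Examples are Tnfrsf4 (OX40) at 289, 301, 510, 374 and 386 CPM against 55.4 to 88.4, Icos at 208 to 434 against 71.7 to 112, and Ctla4 at 281 to 485 against 101 to 133. Of 16 Th1 signalling genes 9 were higher and 2 lower, and of 12 cytotoxic genes 6 were higher and 1 lower.

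Of the naive T cell genes, 15 of 17 were past 1.5-fold lower in all 5 libraries, with -1.34 as the median log2 ratio against 0.09 for all genes. Lef1, a transcription factor of resting T cells, stood at 229, 143, 170, 264 and 180 CPM against 829 to 901. Satb1, a chromatin organizer, stood at 158, 26.0, 158, 166 and 121 against 577 to 692. Interferon lists stood near all genes, at medians of 0.02 for type I and 0.05 for interferon gamma responses, with 2 of 18 and 2 of 17 genes higher and 3 of each lower in all 5 libraries.

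**Figure D4:**
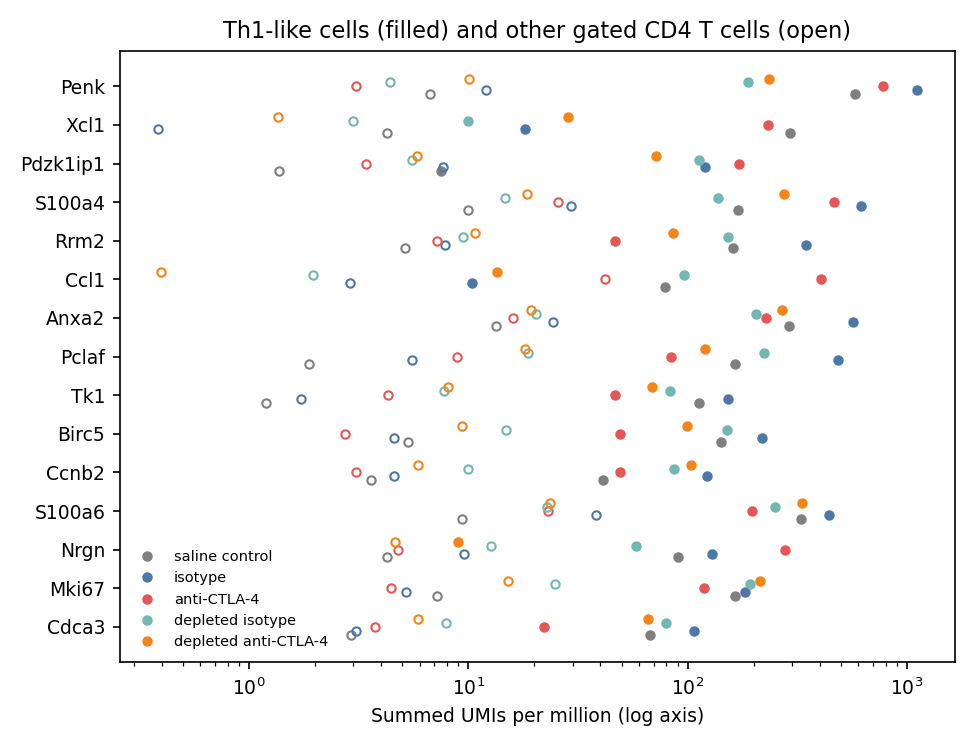
Summed level in CPM (log axis) of the genes with the highest ratios, in Th1-like cells (filled) and other gated CD4 cells (open), 1 point per library. For S100a4, Anxa2, S100a6 and Penk every filled point lies to the right of every open point.

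To place the cells among T cells carrying the same genes, UMIs were summed per library and compared with the 4685 CD8 cells that held at least 2 of the 7 genes, by edgeR's quasi-likelihood test with library as a block (Benjamini-Hochberg adjustment at 0.05, 5 libraries per population; levels in CPM after edgeR's scaling). Of 9866 genes, 1400 (14.2%) were higher and 1284 (13%) lower in the Th1-like CD4 cells. The populations were split by rule on Cd4, Cd8a and Cd8b1, so genes that go with the CD4 or CD8 lineage differ with that split. The Th1-like cells were higher in helper ligands and receptors. Cd40lg, the CD40 ligand by which helper T cells license B cells and dendritic cells, stood at 228, 123, 198, 153 and 192 CPM against 2.19 to 4.67 (log2 difference 5.69 ± 0.16 SE, adjusted p = 1.43e-11). Tnfrsf4 stood at 266 to 441 CPM against 3.07 to 10.5 (5.89 ± 0.17, adjusted p = 2.29e-11). No library overlapped for either gene.

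Tnfsf11 (RANKL) was higher by 5.40 ± 0.25 on the log2 scale, Penk by 7.52 ± 0.50, Bhlhe40 by 4.01 ± 0.16, S100a4 by 3.92 ± 0.39 and Nrp1, which encodes neuropilin-1, by 4.58 ± 0.23, each in 5 of 5 libraries. By list, 13 of 17 cytokines and ligands were higher and 1 lower, 16 of 19 checkpoint genes higher and 1 lower, 12 of 12 Tfh genes higher, 14 of 15 cell cycle genes higher and 11 of 16 S100 genes higher, with medians of 2.62, 1.42, 4.20, 2.45 and 1.03 against -0.04 for all genes tested.

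The CD8 cells were higher in cytotoxic and natural killer receptor genes. Klrd1 (CD94) stood at 4.92 to 48.4 CPM in the Th1-like cells against 220 to 259 (-3.50 ± 0.28, adjusted p = 3.74e-07), and Ly6c2 at 23.4 to 71.0 against 1028 to 1163 (-4.48 ± 0.20, adjusted p = 1.29e-09). Of 14 cytotoxic genes 8 were lower in the Th1-like cells, including Prf1 (perforin), Gzmm, Cst7 and Klrk1 (NKG2D), and 3 were higher. Naive T cell genes were also lower, 16 of 17, with a median of -1.24. These CD8 cells were 34.8% to 41.0% of all CD8 cells, and 99.4% of them held Nkg7.

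Th1 signalling genes divided. Bhlhe40, Prdm1, Id2 and Il2rb were higher in the Th1-like CD4 cells, and Runx3, Txk, Il27ra, Eomes, Ifngr1 and Ifngr2 were higher in the CD8 cells (4 and 6 of 16 tested, median 0.04). Runx3 and Eomes are transcription factors that guide the CD8 cytotoxic lineage. Of 17 interferon gamma response genes, none was higher and 3 were lower.

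Against the 74 Foxp3-positive CD4 cells with the same 7-gene count (12, 9, 14, 19 and 20 cells), fewer genes could be tested and fewer passed. Of 4000 genes tested the same way, 49 (1.23%) were higher and 66 (1.65%) lower in the Th1-like cells. Of 8 cytokines and ligands 4 were higher (Tnfsf8, Tnfsf11, Lta and Cd40lg) and none lower. Cd40lg stood at 281, 148, 242, 185 and 234 CPM against 8.21 to 42.2 (3.18 ± 0.29, adjusted p = 8.16e-07). Tnfsf8 (CD30 ligand) was higher by 3.30 ± 0.24 and Tnfsf11 by 2.67 ± 0.28. Themis, a signalling protein of the T cell receptor, was higher by 3.44 ± 0.30. Tgfbr3, which encodes the TGF-beta co-receptor betaglycan, had 148 UMIs in the Th1-like cells and 0 in the Foxp3-positive cells, at least 17.4-fold higher against a floor of 3 UMIs over the group.

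Genes lower in the Th1-like cells included several of regulatory T cells, and of 17 checkpoint and costimulation genes 7 were lower and 3 higher. Since the rule split the groups on Foxp3, genes that go with Foxp3 differ with that split, and their p-values are no separate evidence. Lrrc32, which encodes the TGF-beta docking receptor GARP, stood at 1.67 CPM to 5.91 in 3 libraries, 11.4 in depleted isotype and 13 in anti-CTLA-4, against 64.7 to 174 (-3.95 ± 0.41, adjusted p = 6.01e-06). Ikzf2 stood at 142 to 341 CPM against 600 to 1320 (-2.03 ± 0.16, adjusted p = 1.74e-07). Tigit was lower by 1.87 ± 0.21 and Il2ra, the high-affinity interleukin-2 receptor chain, by 1.94 ± 0.33 on the log2 scale. Foxp3 itself separated the groups by rule, and none of the 15 cell cycle genes tested passed either way (median 0.15).

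**Figure D5:**
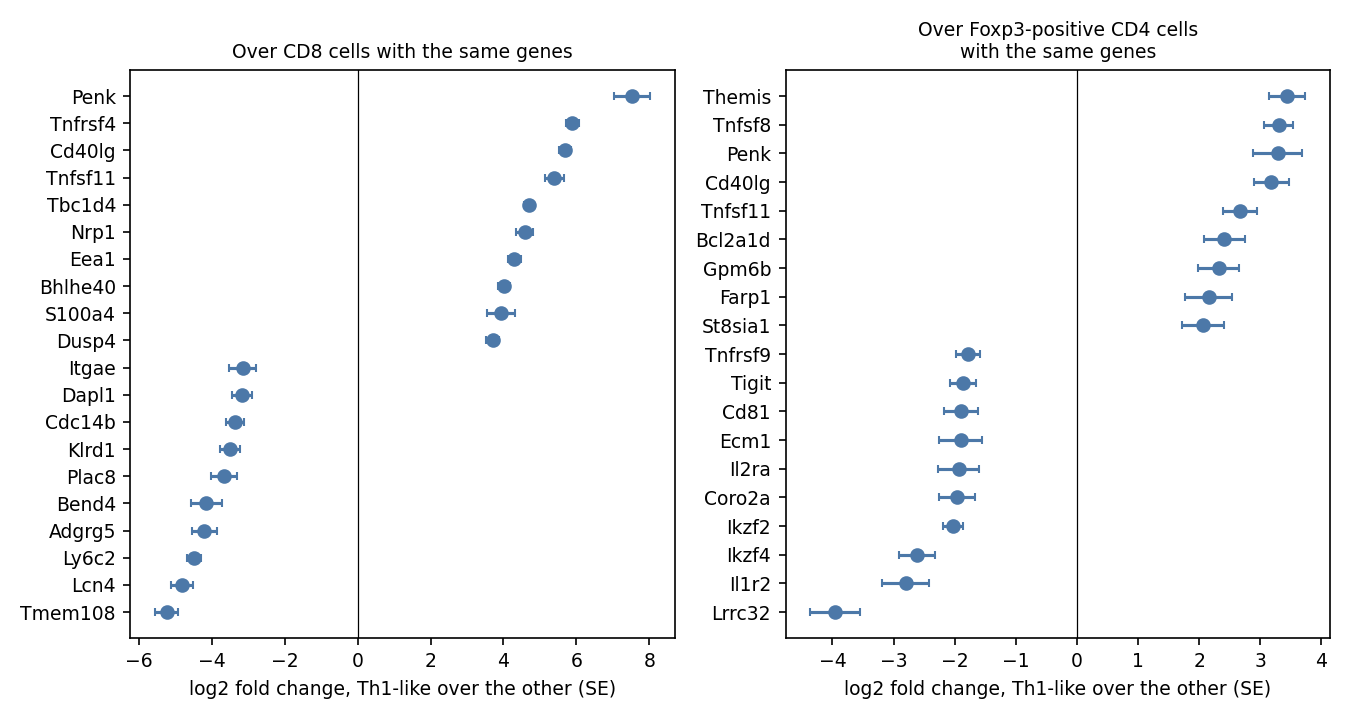
Log2 fold change of the named genes in Th1-like cells over CD8 cells (left) and over Foxp3-positive CD4 cells (right) that held at least 2 of the 7 genes; bars are standard errors from edgeR, and Tgfbr3 is left out as it had no UMI in the Foxp3-positive cells. Cd40lg lies at 5.69 and 3.18, Klrd1 at -3.50 on the left and Lrrc32 at -3.95 on the right.

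Between conditions, a gene was called where the ratio of summed CPM was at least 1.5-fold either way with an interval excluding 1 and at least 20 UMIs over both libraries. The glioma, anti-CTLA-4 and depletion comparisons share the isotype library, whose 28 cells include the deepest, so their values are set side by side and are not independent. For glioma over saline, 529 of 4852 genes (10.9%) were higher and 379 (7.81%) lower. Without cycling cells, 154 of 2431 (6.33%) were higher and 100 (4.11%) lower.

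Effector cytoskeletal and S100 genes were higher in the isotype glioma library than in saline, with and without cycling cells. The list summed to 5891, 9158, 5922, 5925 and 6324 CPM over the 5 libraries, with isotype alone well above saline. In non-cycling cells it summed to 2973, 5591, 4897, 4000 and 4269 CPM, with saline the lowest. S100a4 stood at 616 against 169 CPM, a ratio of 3.64 (2.64 to 5.13), with a UMI in 12 of 28 and 9 of 31 cells, and the ratio was 3.75 in non-cycling cells. Lgals1, which encodes galectin-1, stood at 1348 against 548 CPM (2.46, and 2.01 in non-cycling cells). Vim (vimentin) was at 1.69 and at 3.95 in non-cycling cells. Of 16 genes of the list 6 were higher and none lower (median log2 ratio 0.33), and of 15 in non-cycling cells 10 were higher (0.78).

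Naive T cell genes were lower in that comparison, 8 of 14, and Satb1 (0.165, and 0.303 in non-cycling cells) and Klf2 (0.420 and 0.520), the factor that keeps T cells recirculating, were the ones also lower without cycling cells. Cell cycle genes were higher, 12 of 15, and 0 of 3 in non-cycling cells. Glycolysis genes were higher in 6 of 11 cases and in 0 of 9 in non-cycling cells (median log2 ratio 0.68 and -0.17), and Ldha, the lactate dehydrogenase gene, turned from 2.68 to 0.754 (0.536 to 1.06) in non-cycling cells. Th1 signalling genes were lower, 5 of 10, including Stat4, Ifngr1, Txk and Id2. In non-cycling cells Id2 was the 1 gene of the list lower (0.556), and Bhlhe40 (1.63) and Il2rb (1.72) were higher.

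Several extreme ratios of this comparison rested on 1 or 2 cells. The 50 Il17a UMIs of the isotype library were in 1 cell. In the saline library 99.0% of the UMIs of Spp1 (osteopontin, 0.0339) were in 1 cell. Xcl1, a lymphotactin gene, was at 0.0621 with UMIs in 2 cells of each library.

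With B cells present, anti-CTLA-4 was compared with isotype, and 735 of 5577 genes (13.2%) were higher and 630 (11.3%) lower, and 205 of 3076 (6.66%) and 108 (3.51%) in non-cycling cells. With median-of-ratios size factors the split of all cells was 579 higher and 758 lower. Type I interferon response genes stood out with 9 of 11 higher, and 3 of 7 in non-cycling cells; the median log2 ratio was 1.73 against 0.09 for all genes, and 0.38 against 0.08 in non-cycling cells. Ifi27l2a stood at 1138, 701, 1880, 1344 and 1088 CPM over the 5 libraries, and Isg15, an interferon-induced ubiquitin-like protein, at 41.3, 41.6, 160, 140 and 97.5. The isotype value of Ifi27l2a was the lowest of the 5 and the anti-CTLA-4 value the highest. The ratio of Ifi27l2a was 2.68 (2.33 to 3.09) and that of Isg15 3.85 (2.2 to 7.14), and they were 1.88 and 2.98 in non-cycling cells.

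Stat4, which carries the interleukin-12 signal, stood at 203, 104, 355, 203 and 249 CPM. The anti-CTLA-4 over isotype ratio was 3.41 (2.39 to 4.98) and 2.17 in non-cycling cells, and it was 1 of 5 Th1 signalling genes of 11 called higher, with none lower. Tnfsf11 stood at 165, 109, 409, 211 and 221 CPM, a ratio of 3.75 (2.66 to 5.39) and 2.2 in non-cycling cells. Areg, which encodes the tissue repair factor amphiregulin, stood at 33.8, 46.8, 394, 23.3 and 21.0 CPM, with UMIs in 8 of 54 anti-CTLA-4 and 3 of 28 isotype cells (8.43, and 2.41 in non-cycling cells).

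Checkpoint and costimulation genes were higher under anti-CTLA-4 in 9 of 18 cases and in 2 of 17 in non-cycling cells. Tnfrsf4 (1.69 and 2.01) and Tigit (1.73 and 4.47) were called with and without cycling cells, and Lag3 was lower in non-cycling cells alone (0.587). Ctla4, the target of the antibody, stood at 319, 281, 485, 364 and 324 CPM, a ratio of 1.73 (1.36 to 2.21) and of 1.38 (0.992 to 1.94) in non-cycling cells. Of 17 antigen receptor response genes 6 were higher and 1 lower, and of 15 in non-cycling cells 5 were higher and 1 lower, including Nr4a3 (2.57 and 1.62), an immediate target of receptor signalling, Batf (1.96 and 3.21) and Hif1a (2.28 and 2.24).

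The S100 group was on the lower side here, 7 of 16 lower and 1 higher, and 6 of 15 lower in non-cycling cells. Lgals1 stood at 490 against 1348 CPM (0.364, and 0.639 in non-cycling cells) and S100a6 at 197 against 442 (0.446 and 0.659). Cell cycle genes were lower in 15 of 15 cases with a median log2 ratio of -1.66, although 33.3% of anti-CTLA-4 and 32.1% of isotype cells held a Mki67 or Top2a UMI. Rrm2, a ribonucleotide reductase subunit, stood at 46.8 against 348 CPM with UMIs in 4 cells of each library. The Rrm2 ratio was 0.134 (0.0785 to 0.218), and 0.126 (0.0583 to 0.246) without the top cell of each library. Without each gene's top cells 15 of 15 stayed lower. In non-cycling cells 3 of the 15 genes had enough UMIs, of which Tubb5 was lower and Hmgb2 higher (0.389 with cycling cells and 1.89 without).

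For depleted over intact under isotype, 485 of 6200 genes (7.82%) were higher and 434 (7.00%) lower, and 193 of 3655 (5.28%) and 163 (4.46%) in non-cycling cells. S100a4 stood at 138 against 616 CPM, a ratio of 0.224 (0.172 to 0.289) and 0.399 in non-cycling cells, and Penk at 189 against 1109, a ratio of 0.171 (0.138 to 0.210) and 0.117, carried by 7 of 58 and 6 of 28 cells. Of 16 S100 genes 6 were lower and none higher, and 5 of 15 in non-cycling cells.

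In the depleted isotype cells 9 of 15 naive T cell genes were higher and none lower (median log2 ratio 0.89), and 6 of 14 in non-cycling cells (0.55). Satb1 was at 6.4 and 2.5, Il7r, the survival receptor for interleukin-7, at 3.08 and 1.99, Klf2 at 1.72 and 2.02 and Klf3 at 2.05 and 3.16. Il7r stood at 154, 57.1, 170, 176 and 179 CPM over the 5 libraries, with the isotype library alone low. Satb1, given above, was also lowest there. Anti-CTLA-4 over the same isotype library had 7 of 15 naive T cell genes higher and 2 lower (median log2 ratio 0.53), and 2 of 13 higher in non-cycling cells. Type I interferon genes were higher in depleted isotype cells too, 7 of 12, and 4 of 9 in non-cycling cells (Isg15 3.36 and 2.69). They were also higher in anti-CTLA-4 over isotype, as given above.

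For depleted over intact under anti-CTLA-4, 254 of 6550 genes (3.88%) were higher and 342 (5.22%) lower, and 134 of 4413 (3.04%) and 279 (6.32%) in non-cycling cells. This comparison does not use the isotype library. It shares the intact anti-CTLA-4 library with anti-CTLA-4 over isotype, so the 2 are not independent. Antigen receptor response genes summed to 4194, 3956, 5829, 4593 and 4746 CPM over the 5 libraries. Checkpoint and costimulation genes summed to 3244, 2797, 4245, 3247 and 3417 CPM. The intact anti-CTLA-4 library was the highest in both. Antigen receptor response genes were lower in the depleted nodes, 6 of 18 with 1 higher, and 8 of 16 with none higher in non-cycling cells. Nr4a1 stood at 347 against 537 CPM, a ratio of 0.645 (0.534 to 0.780) and 0.615 in non-cycling cells. Nr4a2 was at 0.369 (0.277 to 0.488) and 0.304, Nr4a3 at 0.561 and 0.435, the NF-kB subunit Rel at 0.636 and 0.486, and Batf at 0.639 and 0.650.

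Checkpoint genes were lower as well, 6 of 19 with none higher and 7 of 17 in non-cycling cells. Lag3 stood at 36.0 against 131 CPM with UMIs in 11 of 75 and 21 of 54 cells, a ratio of 0.276 (0.163 to 0.455) and 0.324 in non-cycling cells. Tigit was at 0.345 and 0.105, Pdcd1 (PD-1) at 0.485 and 0.383, and Tnfrsf9 (4-1BB) at 0.341 and 0.329. Of 13 Tfh genes 6 were lower (6 of 11 in non-cycling cells), and of 14 cytokines and ligands 6 were lower and 1 higher (6 of 12 lower in non-cycling cells), among them Tnfsf11 (0.539 and 0.275) and Areg (0.0533 and 0.0719).

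Genes of egress and positioning were higher in the depleted anti-CTLA-4 cells. S1pr1, the receptor that lets T cells leave the node, stood at 126 against 46.8 CPM with UMIs in 35 of 75 and 13 of 54 cells, a ratio of 2.69 (1.62 to 4.69) and 2.09 in non-cycling cells. The integrin chain Itga4 was at 2.18 (1.70 to 2.83) and 2.00, with UMIs in 58 of 75 and 33 of 54 cells, and Gpr183, an oxysterol receptor that positions cells at the follicle border, at 1.83 and 2.12. Of 16 migration genes 5 were higher and none lower, and 4 of 14 in non-cycling cells. S1pr1 was also called lower in the intact anti-CTLA-4 library than in isotype, but not in non-cycling cells. Nrgn was at 0.0323 with UMIs in 3 of 75 and 9 of 54 cells. Cell cycle genes were higher in 9 of 15 cases and in 0 of 4 in non-cycling cells, with cycling shares of 32.0% and 33.3%.

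For anti-CTLA-4 over isotype after depletion, 270 of 6975 genes (3.87%) were higher and 242 (3.47%) lower, and 122 of 4864 (2.51%) and 168 (3.45%) in non-cycling cells. Interferon gamma response genes were higher in 5 of 17 cases, and in non-cycling cells 2 of 14 were higher and 1, Gbp2, lower. Irf1, a factor induced by interferon gamma, stood at 162 against 86.4 CPM with UMIs in 50 of 75 and 26 of 58 cells, a ratio of 1.87 (1.33 to 2.66) and 1.63 in non-cycling cells. Socs1, its feedback inhibitor, was at 1.66 and 1.70.

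No type I interferon gene of 15 and no naive T cell gene of 15 was past the threshold either way in that comparison; in non-cycling cells Ifi27l2a and Lef1 were lower and Igfbp4 higher. Cytotoxic genes were higher in 5 of 10 cases with 1 lower (3 of 9 with 2 lower in non-cycling cells): Ctsw, a cathepsin of cytotoxic cells, was at 2.60 (1.72 to 4.01) and 1.84, and Gzma was in 3 cells against none, at least 15-fold higher against a floor of 3 UMIs, with 64.0% of the UMIs in 1 cell. Cd226, an activating receptor, was at 2.19 and 1.66, Ramp3 at 3.77 (1.93 to 8.08) and 5.62, and Pdcd1 at 0.636 and 0.400. S100a4 (2.00 and 1.28), Itgb1 (1.68 and 1.22) and Itga4 (1.67 and 1.16) were called with cycling cells and not without them.

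The 2 anti-CTLA-4 comparisons share no library. Of the genes tested in both, 61 were higher in both (8.43% of those higher with B cells and 28.6% of those higher after depletion), including Irf1, Tnfsf8, Cd226, Ctsw and Ramp3, and 71 were lower in both (11.5% and 36.6%), including Mcm3, Mcm5, Mcm6, Rrm2 and Tyms of DNA replication. Among all genes tested, 3.87% were called higher after depletion, the figure beside 8.43%, and 13.2% with B cells, beside 28.6%. For lower calls, 11.5% stands beside 3.47% and 36.6% beside 11.3%. Without each gene's top cells 43 of the 61 and 23 of the 71 remained, the named genes among them. In non-cycling cells Irf1 was called higher in both comparisons, Cd226 and Ctsw after depletion alone, and Tnfsf8 in neither. None of the named replication genes was called there, where 3 and 4 of the 15 cell cycle genes had enough UMIs. Over all cells another 18 were higher with B cells and lower after depletion, and 12 were lower with B cells and higher after depletion. The 2 depletion comparisons share no library either: 37 genes were higher in both (7.89% and 15.7%), including Klf3, Bach2, Gpr183, Ptger4 and Igfbp4, and 27 were lower in both (6.85% and 8.94%), including S100a4, Penk, Lag3, Nrgn and Rgs16. Among all genes tested, 3.88% were called higher under anti-CTLA-4, the figure beside 7.89%, and 7.82% under isotype, beside 15.7%. For lower calls, 6.85% stands beside 5.22% and 8.94% beside 7.00%. Without each gene's top cells 28 of the 37 remained, with all 5 named genes, and 9 of the 27, with Penk, Lag3 and Nrgn and without S100a4 and Rgs16. In non-cycling cells Penk, Lag3 and Rgs16 were called lower in both, and S100a4 under isotype alone. Klf3 was called higher there under isotype alone, and Bach2, Gpr183, Ptger4 and Igfbp4 under anti-CTLA-4 alone. Over all cells another 32 were higher under isotype and lower under anti-CTLA-4, and 31 the reverse, so opposite calls were about as many as shared ones.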

How the data were processed

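Mouse deep cervical node immune cells were measured in 5 gene expression libraries, and 3 of these groups also in B cell receptor libraries. The deposited matrices hold UMI counts per gene and barcode from Cell Ranger 7.0.1, per the file headers, on mm10 (submitters' processing notes, which also name bcl2fastq 2.20.0); the deposited contig tables give UMI and read counts per contig. The cells and gene lists were chosen with earlier results of these data known. Counts were summed per library and population and scaled to 1000000 (CPM). Ratios of levels carry exact conditional binomial 95% intervals, ratios of shares approximate ones on the log scale and shares exact Clopper-Pearson ones, all covering counting error only (python 3.11.15, scipy 1.17.1). Scrublet (scanpy 1.11.5) gave doublet scores. Its own cut would remove 315, 379, 516, 0 and 3 barcodes, almost none in the depleted libraries, and was not used. Why it marked so few there was not tested. All barcodes were kept, and an alternative left out the highest scores at 0.8% per 1000 barcodes. Populations were compared with edgeR 4.0.16 (R 4.3.3; TMM, filterByExpr, library as block), tested on simulated data, with DESeq2 1.42.0 as an alternative; standard errors are the log2 difference over the root of F; the 10 genes with the largest fold each way were named among those in 1 direction in all 5 libraries and at an average log2 CPM of at least 5, and against other gated CD4 cells the 15 highest and 10 lowest ratios. Between conditions the 4 highest and 4 lowest genes of each comparison by the bound nearest 1, with at least 50 UMIs and without receptor, ribosomal, globin, mitochondrial and unnamed genes or genes much higher in B or myeloid barcodes, and all called or abundant list genes could be named. The 5 libraries are separate samples per the labels, from different treatments. With library as a block, the edgeR p-values measure the spread across libraries of the difference between populations within a library. Gene positions and promoters are RefSeq's, GRCm38.p6. Some results are not reported here.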

Additional observations from a re-analysis of the deposited data

Results flagged for a closer look

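The cell cycle genes of the Th1-like cells moved in opposite directions with B cell depletion in the 2 treatment settings. The median log2 ratio of the 15 genes, depleted over intact, was -0.53 under isotype, with 7 genes lower, and 0.74 under anti-CTLA-4, with 9 genes higher. Hmgb2, Mcm3, Pcna and Rrm2 were called in both and in opposite directions. The difference between the 2 settings was not tested, since each group is 1 library. The share of cells with a Mki67 or Top2a UMI beside it was 32.1% in isotype and 25.9% in depleted isotype, and 33.3% in anti-CTLA-4 and 32.0% in depleted anti-CTLA-4. Cycling cells held 63.7% of the isotype UMIs and 44.6% to 47.3% in the other 3 glioma libraries. In non-cycling cells 4 of the 15 genes had enough UMIs: under isotype Hmgb2 was higher (1.58, against 0.663 with cycling cells) and Tubb5 lower, and under anti-CTLA-4 none was called. Without each gene's top cells 1 of the 7 genes stayed lower under isotype and 8 of the 9 stayed higher under anti-CTLA-4.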

How the results depend on the processing

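With 28 to 75 cells a group, no ratio of shares of gated CD4 T cells was detectable at each cell's own depth with at least 2 selecting genes, and levels rest on few deep cells. The shares of gated CD4 T cells kept intervals that held 1 with at least 3 genes, without high doublet scores and without barcodes holding Mki67 or Top2a. Thinned to 3000 UMIs, the depletion ratio under anti-CTLA-4 was 0.598 (0.377 to 0.949), and with at least 1 gene the anti-CTLA-4 ratio after depletion was 1.36 (1.13 to 1.63). Anti-CTLA-4 over isotype was 1.57 (1.003 to 2.46) with at least 1000 genes per barcode and 1.58 (1.002 to 2.49) over all barcodes, where the depletion ratios became 2.22 and 1.80. The cycling, MHC class II and 5-cell alternatives were chosen after seeing the data. Genes past 1.5-fold, 908 for glioma over saline, were 581 with at least 50 UMIs, 460 with at least 3 selecting genes, 520 without the top cell of each gene and 254 without cycling cells. Anti-CTLA-4 over isotype gave 863 with at least 3 genes and 313 without cycling cells. Depleted over intact under isotype gave 471 with at least 3 genes and 356 without cycling cells, and under anti-CTLA-4 394 with at least 50 UMIs. Anti-CTLA-4 over isotype after depletion gave 323 with at least 50 UMIs and 290 without cycling cells. Another scaling shifted all log2 ratios by at most 0.09.

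Without cycling cells, some ratios passed to the other side of 1. For glioma over saline they were Srm (0.556), C1qbp (0.417) and Spp1 (5.56). For anti-CTLA-4 over isotype they were Xcl1 (0.532) and Srm (3.10) with B cells, and Hist1h1b (1.33) after depletion. For depleted over intact they were Ccl1 (at most 0.331) and Il2 (0.441) under isotype. Under anti-CTLA-4 they were Rad51b (0.630), Diaph3 (0.630) and Xcl1 (1.99). These ratios are given without intervals, and several rest on few UMIs. Over all cells Srm had 3 UMIs in saline, Spp1 5 and Ccl1 4 in isotype, and Rad51b 3 in anti-CTLA-4. No turn beyond counting error is shown by these ratios. Without the top cell of each library, Hist1h2ae turned for glioma over saline (4.84, 1.11 to 43.9). Spp1 (1.38, 0.072 to 81.6) and Ccl1 after depletion (2.26, 0.369 to 23.7) also passed 1, with intervals that held 1. For Ccl1 under isotype the value is a lower bound (at least 0.427), which shows no turn. The cause was not tested.

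Against CD8 cells, 2684 genes passed with library as a block, 3198 with no replicate block, 2368 with DESeq2 and 3284 with no filter, and 1975 to 2698 leaving out 1 library each. Against Foxp3-positive cells, 115 passed with the block, 66 with no replicate block, 313 with no filter, 62 with DESeq2 and 80 to 116 leaving out 1 library each. No paired analysis was possible between conditions because each has 1 library; the 2 comparisons of populations above pair them within a library.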

Other observations

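T cell receptor beta variable segments describe how varied the Th1-like cells were. A Trbv UMI was found in 27 of 31, 27 of 28, 52 of 54, 57 of 58 and 72 of 75 cells, and the most abundant segment per cell spread over 14, 11, 19, 18 and 18 segments. In 7, 7, 17, 11 and 17 cells 2 or more segments each had more than 1 UMI, so the leading segment is less certain there. Among the other gated CD4 cells this held for 131 of 1060, 149 of 938, 173 of 1142, 388 of 2129 and 361 of 2081. Over the 5 libraries Trbv3 led in 26 of 235 cells (11.1%, interval 7.36% to 15.8%), Trbv19 in 25 (10.6%) and Trbv13-2 in 23 (9.79%), against 11.6%, 8.33% and 11.3% of the other gated CD4 cells. Trbv31 led in 11 cells (4.68%, 2.36% to 8.22%) against 8.89% (8.23% to 9.59%). A segment is not a clone, and no CDR3 sequence of a T cell receptor was used here.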
